A study of Mus musculus with 12 samples.

Results

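Translation initiation factor genes were taken from a list of poly(A) sites (PASs) that 3′READS+, which sequences the 3′ ends of polyadenylated transcripts, gave for the mouse hippocampus. Every gene whose symbol starts with Eif and a number from 1 to 6 was included, except the Eif2c symbols, which name the Argonaute genes. The rule gave 54 of the 16627 genes of the list, with 158 of its 56204 entries, on 20 chromosomes. Acute hippocampal mini-slices, from which the dentate gyrus had been trimmed, came from 3 month old C57BL/6 mice. The paper gives the mice as male. Slices of one animal were divided between treatment and control. Chemical LTP, a pharmacological form of long-term potentiation, was induced with forskolin and high potassium and calcium, and control slices received DMSO vehicle in ACSF. Collection at 1 hr or at 3 hr after treatment gave 4 groups (control and LTP at each time) of 3 libraries each. The list of PASs was common to all 12 libraries. Its 12 columns of read counts could not be tied to the libraries by name and were not used, so neither a level nor a difference between LTP and control slices is given for any gene. As these columns were left out, the depth behind each PAS and the spread between replicates are not given. Depth pooled over all libraries would not need the names, but it was not computed. The tissue label was not checked against marker levels, and an entry shows only that the PAS was listed. The list was used whole, without the filter on read number and relative abundance behind the paper's own, smaller counts of PASs.

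Initiation factors bring the ribosome to the start codon. eIF2 carries the initiator tRNA to the small subunit and is recharged with GTP by eIF2B, while 4 kinases (Eif2ak1 to Eif2ak4) phosphorylate its alpha subunit and so hold back eIF2B. eIF3 is a large scaffold on the small subunit, and the cap-binding complex of eIF4E, eIF4G and the helicase eIF4A recruits the mRNA. The 4E-binding proteins compete with eIF4G for eIF4E and are controlled by mTOR, a step much studied in hippocampal plasticity. Where a gene has several PASs, their choice sets the length of the 3′UTR or, when the PAS lies in an intron, truncates the coding sequence.

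Each entry of the members carried 1 of 6 region labels, while 1628 entries of other genes (2.9% of the list) carried another, such as exon53 for single-exon genes. Label exon3 stands for the 3′-most exon, exon3ext for sites downstream of it, intron_Comp and intron_Skip for intronic sites that use a composite or a skipped terminal exon, exonI for an internal exon, and UA for upstream antisense sites. Of the members' 158 entries, 106 (67.1%) were exon3, 31 (19.6%) intron_Comp, 3 (1.9%) intron_Skip, 8 (5.06%) exon3ext, 2 (1.27%) exonI and 8 (5.06%) UA. Over all entries of the list, 55.7% were exon3, 23.9% intron_Comp, 3.16% intron_Skip, 6.06% exon3ext and 7.11% UA. A PAS in the 3′-most exon was listed for 52 members (96.3%) against 90.7% of all genes, or 93.9% when exon53 is counted too. Intronic sites were 34 of the 140 intronic and exon3 entries of the members, or 24.3% (95% Wilson interval 17.9% to 32.0%, for counting error only), beside 32.7% over the list. Sites of 1 gene are not independent, so the interval is too narrow as a range for a family of genes. No entry of a member was also listed under another gene.

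The members held 1 to 9 PASs, with a median of 2, which was also the median of all genes. A single PAS was listed for 21 members (38.9%, against 32.9% of all genes), and 33 (61.1%) had 2 or more, against 67.1%. As many as 5 or more PASs were listed for 13 members (24.1%), close to the 23.7% of all genes. The most PASs in any gene of the list was 40.

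**Figure D1:**
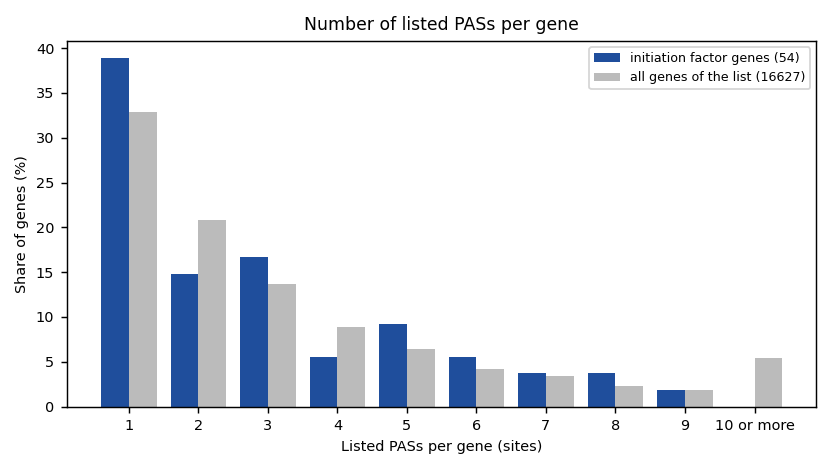
Share of genes (%, y axis) by the number of listed PASs (x axis), for the 54 initiation factor genes (blue) and all 16627 genes of the list (grey). The members had a single PAS in 38.9% of cases against 32.9%, and no member had more than 9.

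**Figure D2:**
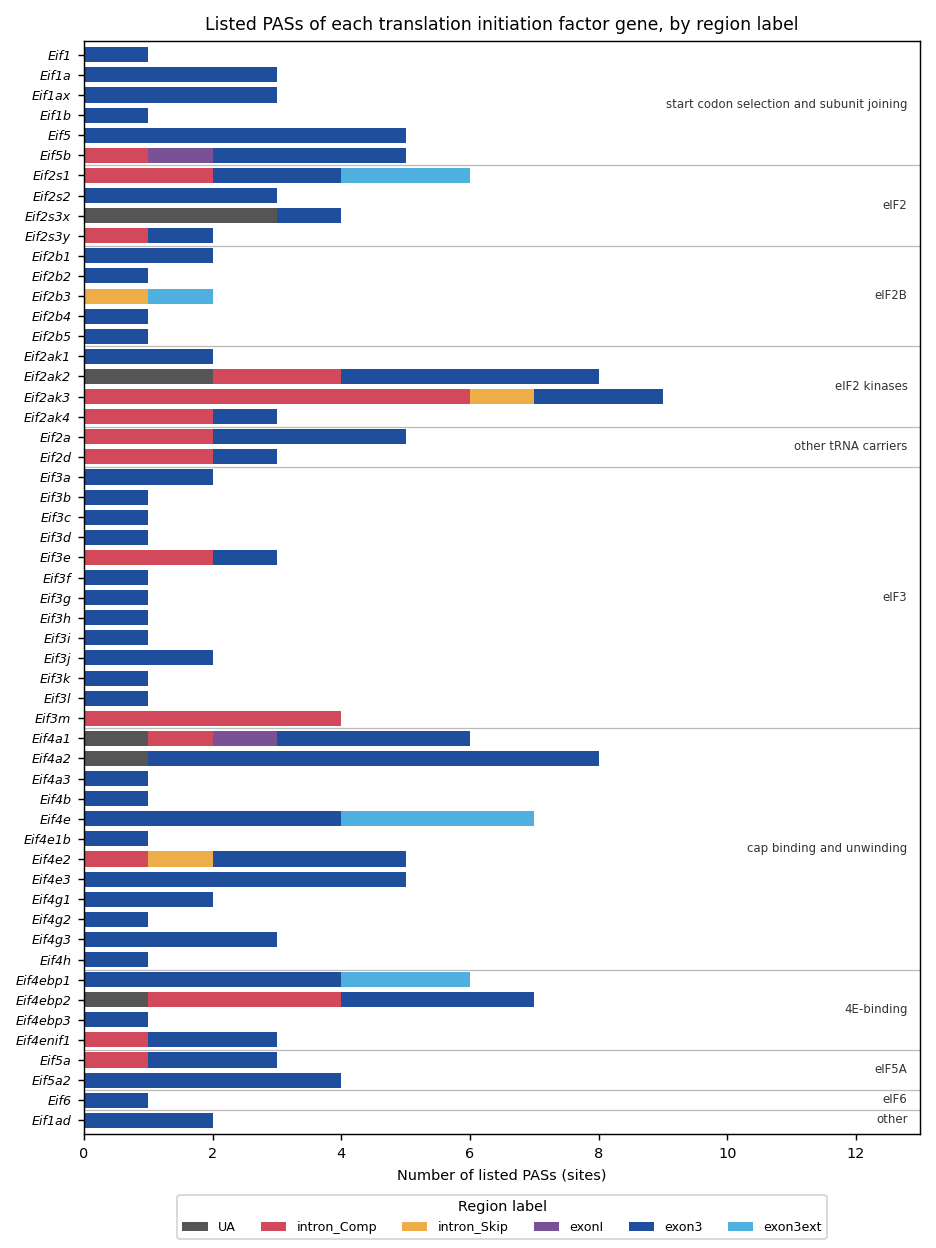
Number of listed PASs (x axis) of each of the 54 genes (y axis, grouped by role), with colours for the 6 region labels. The eIF3 subunits were mostly single-site genes (9 of 13), against 32.9% of all genes. No eIF2 subunit or eIF2 kinase had a single site when UA sites were counted, but Eif2s3x had 1 without them.

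These counts varied between the functional groups. The 13 eIF3 genes had a median of 1 PAS and the 5 eIF2B genes a median of 1, whereas the 4 genes of eIF2 had a median of 3.5, the 4 eIF2 kinases a median of 5.5 and the 4 genes of eIF4E-binding factors (Eif4ebp1 to Eif4ebp3 and Eif4enif1) a median of 4.5. The 12 genes of cap binding and unwinding had a median of 2.5 and together the most entries (41). The 6 genes of start codon selection and subunit joining had a median of 3. All these counts include UA sites, which were 3 of the 4 entries of Eif2s3x and 2 of the 8 of Eif2ak2. The groups were set up by role, hold few genes and were not tested against each other.

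Among the genes of start codon selection, Eif1, whose product keeps the scanning ribosome faithful to AUG, had 1 exon3 PAS, at position 100183413 of chromosome 11, plus strand (all positions are on mm9, the build in the submitters' processing notes). Its paralogue Eif1b, on chromosome 9, also had 1, at 120404431 on the plus strand. The eIF1A paralogues had 3 exon3 PASs each. Those of Eif1a (chromosome 18, positions 46768832, 46768903 and 46769865) spread over 1033 nt, while those of the X-linked Eif1ax (155823496, 155823611 and 155823636) lay within 140 nt. Eif5, the GTPase-activating protein of eIF2, had 5 exon3 PASs on chromosome 12. The first, at 112783132, stood 1670 nt upstream of the other four, which had gaps of 25, 49 and 89 nt and ended at 112784965. As many exon3 PASs or more were listed for 7.12% of all genes. Eif5b, the GTPase of subunit joining on chromosome 1, combined an intron_Comp site at 38078657, which lay 30457 nt upstream of its first exon3 PAS, with an exonI site at 38090948 and 3 exon3 PASs at 38109114, 38110015 and 38111347. Eif1ad, which encodes a protein with an eIF1A-like domain, had exon3 PASs at 5370248 and 5371507 of chromosome 19, at a distance of 1259 nt.

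All 4 genes of eIF2 had more than 1 PAS with UA sites counted, but with different labels. Eif2s1, which encodes the alpha subunit that the eIF2 kinases phosphorylate, had 6 entries on chromosome 12. These were 2 intron_Comp sites at 79963815 and 79965118, exon3 sites 208 nt apart at 79986308 and 79986516, and 2 exon3ext sites at 79988452 and 79989236, which lay 1936 and 2720 nt past the last exon3 PAS. In RefSeq, Plek2 is the next gene downstream. Eif2s2 (beta subunit) had 3 exon3 PASs over 1019 nt. The gamma subunit is encoded by an X-linked and a Y-linked copy. Eif2s3x had 1 exon3 PAS at 91434046 of the X chromosome (minus strand) and 3 UA sites, whereas Eif2s3y had an exon3 PAS at 365037 of the Y chromosome (plus strand), an intron_Comp site 13122 nt upstream of it at 351915, and no UA site.

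eIF2B, the exchange factor of eIF2, had 7 entries for its 5 genes. Eif2b2 (chromosome 12, 86567443), Eif2b4 (chromosome 5, 31489940) and Eif2b5 (chromosome 16, 20509396) had 1 exon3 PAS each, and Eif2b1 had 2, 440 nt apart. Eif2b3, of the catalytic subcomplex, was 1 of the 2 members with no exon3 entry. It had an intron_Skip site at 116731931 of chromosome 4 and, 14257 nt farther on, an exon3ext site at 116746188.

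The eIF2 kinases held 22 entries, of which 11 were intronic, and 7 of these 11 were in Eif2ak3. Over the list, 15184 of 56204 entries were intronic. Eif2ak3 (PERK, the kinase of endoplasmic reticulum stress) had the most PASs of all members. Its 9 entries on chromosome 6, plus strand, were 6 intron_Comp sites, 1 intron_Skip site at 70814818 and exon3 PASs 70 nt apart at 70855162 and 70855232. The intron_Comp sites stood at 70795373, 70798367, 70827776, 70829099, 70833548 and 70843406. Thus its intronic sites spread from 59789 to 11756 nt upstream of the first exon3 PAS. As many PASs or more were listed for 7.3% of all genes, and as many intronic sites or more for 2.77%. Eif2ak2 (PKR, the kinase that senses double-stranded RNA) had 8 PASs on chromosome 17, minus strand. These were 2 UA sites, intron_Comp sites at 79280190 and 79259303, and 4 exon3 sites at 79253845, 79253803, 79253291 and 79251896, which spanned 1949 nt. Eif2ak4 (GCN2, the kinase of amino acid shortage) had intron_Comp sites at 118271953 and 118297860 of chromosome 2, at 29015 and 3108 nt from its only exon3 PAS at 118300968. Eif2ak1, the heme-regulated kinase, differed from the other three in having no intronic site, and its exon3 PASs at 144663586 and 144665125 of chromosome 5 were 1539 nt apart.

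Eif2a and Eif2d encode factors that can deliver tRNA without eIF2, and both had 2 intron_Comp sites. Those of Eif2a (chromosome 3, 58345945 and 58346884) lay 15403 and 14464 nt upstream of 3 close exon3 PASs at 58361348, 58361375 and 58361423. In Eif2d, 1 of the intron_Comp sites (133057335 of chromosome 1) lay 11480 nt from the only exon3 PAS at 133068815, and the other (133068085) lay 730 nt from it, the shortest such distance among the members.

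In 9 of the 13 eIF3 genes a single exon3 PAS was listed. These were Eif3b (chromosome 5, 140919314), Eif3c (chromosome 7, 133690425), Eif3d (chromosome 15, 77789431), Eif3f (chromosome 7, 116085205), Eif3g (chromosome 9, 20698793), Eif3h (chromosome 15, 51618106), Eif3i (chromosome 4, 129269218), Eif3k (chromosome 7, 29756392) and Eif3l (chromosome 15, 78924830). Eif3a, the largest subunit, had exon3 PASs 670 nt apart. Eif3j had exon3 PASs at 121882131 and 121882334 of chromosome 2, 203 nt apart. Mouse genes Eif3j1 and Eif3j2 are near-identical copies, only Eif3j was listed, and its identifier was reached through a RefSeq synonym of Eif3j1, so the assignment of these PASs to 1 copy is uncertain. Eif3e had intron_Comp sites at 43092917 and 43085541 of chromosome 15 (minus strand), 11318 and 3942 nt upstream of its exon3 PAS at 43081599. Eif3m was the other member without an exon3 entry. All 4 of its PASs on chromosome 2 were intron_Comp, at 104852412, 104849386, 104844708 and 104841306 on the minus strand. As many intronic sites or more were listed for 7.82% of all genes. With no exon3 or exon3ext entry, the list does not show where the full-length Eif3m transcript ends. Labels were taken as deposited, and whether 1 of these 4 sites is that end was not examined.

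Within the cap-binding complex, the helicase paralogues had different sets of PASs. Eif4a1 (chromosome 11, minus strand) had 6, which were 1 UA site, 1 intron_Comp site at 69485394, 1 exonI site at 69482040 and exon3 sites at 69480790, 69480500 and 69480435. Eif4a2, the paralogue that is abundant in brain, had 8 on chromosome 16, plus strand, of which 7 were exon3 and 1 was UA. The exon3 sites ran from 23112541 over 23113294, 23113528, 23113713, 23113831 and 23114020 to 23114223, with gaps of 118 to 753 nt. This was the largest number of exon3 PASs of any member, and 2.11% of all genes had as many or more. Eif4a3, a core protein of the exon junction complex, had 1 exon3 PAS (chromosome 11, 119149677). The helicase cofactors Eif4b (chromosome 15, 101927599) and Eif4h (chromosome 5, 135095746) had 1 each.

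Eif4e, which encodes the cap-binding protein itself, had 7 PASs on chromosome 3, none of them intronic. Its exon3 sites at 138219653, 138219873, 138220145 and 138220347 spanned 694 nt, and exon3ext sites at 138222660, 138223187 and 138231902 lay 2313, 2840 and 11555 nt past the last of them. The next RefSeq gene downstream is a pseudogene, Gm29762. Eif4e2, a cap-binding homologue that represses translation, had an intron_Comp site at 89123177 of chromosome 1, an intron_Skip site at 89124638 and exon3 sites at 89134467, 89134978 and 89136827. Eif4e3, a further homologue, had 5 exon3 sites and no others, at 99576764, 99576438, 99576309, 99575594 and 99575118 of chromosome 6 (minus strand). A single exon3 PAS (chromosome 13, 54889820) was listed for Eif4e1b, a homologue best known from oocytes. The scaffold genes were simpler. Eif4g1 had exon3 PASs at 20692660 and 20692956 of chromosome 16, and Eif4g3 had 3 on chromosome 4 at 137762096, 137762305 and 137762981. Eif4g2, whose product lacks the eIF4E-binding region, had 1 (chromosome 7, 118214243).

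The paralogues Eif4ebp1, Eif4ebp2 and Eif4ebp3 had 6, 7 and 1 PASs. Eif4ebp1 had 4 exon3 PASs packed within 116 nt (28385988, 28386033, 28386059 and 28386104 of chromosome 8) and 2 exon3ext sites, at 28387137 and 28387386, that lay 1033 and 1282 nt past them. The gene next to it in RefSeq is a pseudogene, Gm18266. Eif4ebp2, the form that predominates in brain, had 7 PASs on chromosome 10, minus strand. A UA site at 60916446 and intron_Comp sites at 60914537, 60907881 and 60903811 preceded exon3 sites at 60896408, 60895608 and 60895527. Its 3 intronic sites were matched or exceeded by 11.6% of all genes. Eif4ebp3 had 1 exon3 PAS (chromosome 18, 36825569). Eif4enif1, which encodes the eIF4E transporter 4E-T, had an intron_Comp site at 3130190 of chromosome 11, 14212 nt upstream of exon3 PASs at 3144402 and 3144586.

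The eIF5A paralogues encode a hypusine-containing factor that also acts in elongation. Eif5a (chromosome 11, minus strand) had an intron_Comp site at 69732248 and exon3 PASs at 69730509 and 69730214, 295 nt apart. Eif5a2 had 4 exon3 PASs on chromosome 3, at 28694451, 28696293, 28697652 and 28697762. Eif6, which keeps the large subunit from joining too early, had 1 (chromosome 2, 155645573, minus strand).

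For genes with alternative PASs in the 3′-most exon, the genomic distance between the outermost ones was used to show how much the 3′UTR can differ. Such a pair was listed for 26 members, 50.0% of those with any exon3 PAS, against 49.5% of all genes. The median distance was 787.5 nt (95% interval from order statistics 295 to 1539), and that of all genes was 817 nt. In 11 members (42.3%) it was over 1000 nt, against 44.1%. Eif5a2 had the longest, 3311 nt, followed by Eif4e2 (2360 nt), Eif5b (2233 nt), Eif2ak2 (1949 nt), Eif5 (1833 nt), Eif4a2 (1682 nt), Eif4e3 (1646 nt), Eif2ak1 (1539 nt), Eif1ad (1259 nt) and Eif1a (1033 nt). Of all such genes, 8.21% had a distance as long as that of Eif5a2. At the other end were Eif2ak3 (70 nt), Eif2a (75 nt), Eif4ebp1 (116 nt) and Eif1ax (140 nt). Paralogues differed in this distance, which was 295 nt in Eif5a and 3311 nt in Eif5a2, and 355 nt in Eif4a1 and 1682 nt in Eif4a2.

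**Figure D3:**
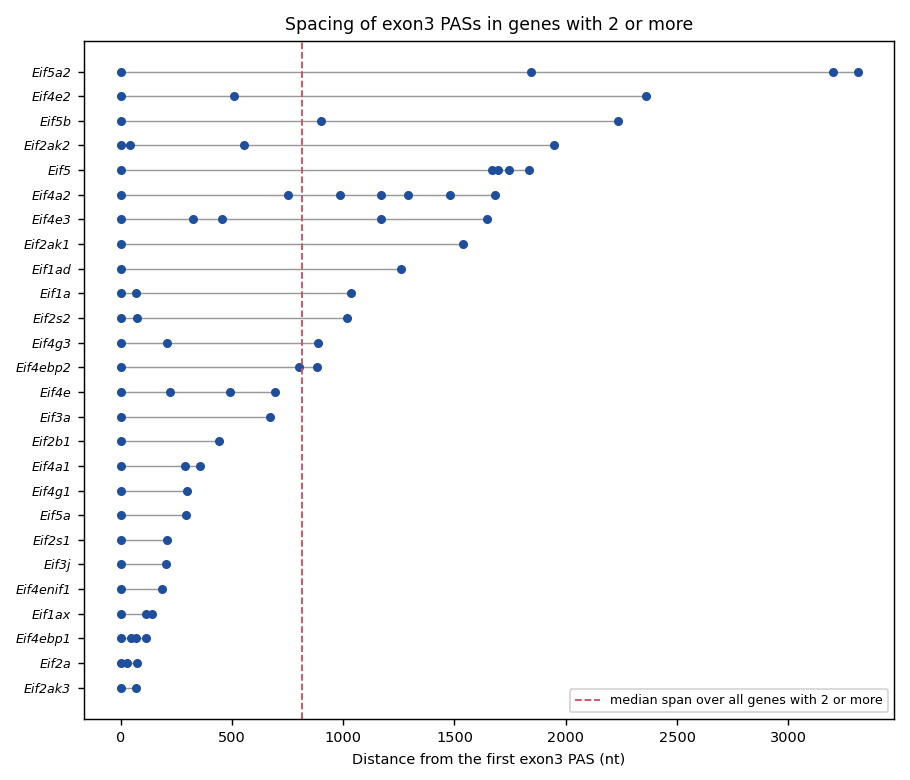
Distance of each exon3 PAS from the first one of its gene (nt, x axis) for the 26 members with 2 or more, ordered by their outermost distance, with the median over all genes (817 nt) as a dashed line. Eif5a2 reached 3311 nt, and the sites of Eif2ak3 lay 70 nt apart.

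The 54 pairs of neighbouring exon3 PASs of the members had a median distance of 214.5 nt (range 25 to 1849), and those of all genes a median of 259 nt. Within 50 nt of each other were 9 pairs (16.7%), against 12.9%. These close pairs were in Eif1ax, Eif2a, Eif2ak2, Eif4ebp1 and Eif5. The authors had joined PASs within 24 nt, so a pair at 25 nt, as in Eif1ax and Eif5, was near that limit. Of the 16200 neighbouring exon3 pairs of all genes, 1 lay closer than 24 nt.

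Both an intronic and an exon3 PAS were listed for 14 members (25.9%, against 29.2% of all genes), and 16 (29.6%, against 33.5%) had an intronic PAS. Among these 14 genes, all 29 intronic PASs lay upstream of the first exon3 PAS, at a median of 14212 nt (range 730 to 59789). Over all genes, 12823 of the 12982 intronic PASs with an exon3 PAS lay upstream of the first one, at a median of 20428 nt. The nearest intronic PASs were in Eif2d (730 nt), Eif5a (1739 nt), Eif2ak4 (3108 nt) and Eif3e (3942 nt), and those farthest away were in Eif2ak3. An intron_Skip site was rare, being listed only for Eif2ak3, Eif2b3 and Eif4e2 among the members (5.56%, against 5.82% of all genes). The names of the introns were not in the list, so how much of each protein such a transcript would encode was not determined.

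**Figure D4:**
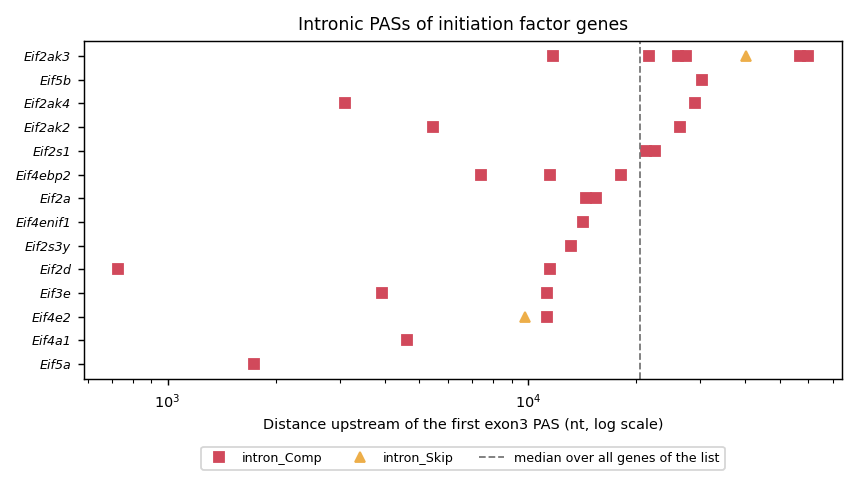
Distance from each intronic PAS to the first exon3 PAS downstream (nt, log scale, x axis) for the 14 members with both kinds, with squares for intron_Comp, triangles for intron_Skip and the median of all genes (20428 nt) as a dashed line. The 7 intronic PASs of Eif2ak3 lay 11756 to 59789 nt upstream, and the nearest of all was in Eif2d at 730 nt.

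Upstream antisense PASs mark short transcripts that run away from a promoter on the opposite strand. They were listed for 5 members (9.26%, against 13.8% of all genes). As the label means, the 8 sites all carried the strand opposite to the gene's, and none of the members' other sites did. Eif2s3x had 3 UA sites, the most of any member, at 91460156, 91459168 and 91458411, and 2.26% of all genes had as many or more. Eif2ak2 had 2, at 79284983 and 79284180, a number reached by 4.86%. Eif4a1 had 1 at 69488233, Eif4a2 had 1 at 23106402 and Eif4ebp2 had 1. Because UA sites are defined by their place upstream of a gene, the promoters of Eif2s3x, Eif4a1 and Eif4a2 are shown from 250 bases before to 50 bases after the gene's start in RefSeq (GRCm38.p6, which is not the build of the PASs). Capitals mark CpG dinucleotides, and the sequences are those of the gene's strand, at chrX:94212602-94212901 (minus strand), chr11:69672374-69672673 (minus strand) and chr16:23107218-23107517 (plus strand).
Eif2s3x: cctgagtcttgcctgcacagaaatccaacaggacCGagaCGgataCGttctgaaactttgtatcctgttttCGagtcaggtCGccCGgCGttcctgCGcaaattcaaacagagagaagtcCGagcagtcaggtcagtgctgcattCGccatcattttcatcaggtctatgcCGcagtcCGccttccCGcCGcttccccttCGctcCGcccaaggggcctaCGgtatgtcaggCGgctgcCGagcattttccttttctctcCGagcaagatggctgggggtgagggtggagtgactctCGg
Eif4a1: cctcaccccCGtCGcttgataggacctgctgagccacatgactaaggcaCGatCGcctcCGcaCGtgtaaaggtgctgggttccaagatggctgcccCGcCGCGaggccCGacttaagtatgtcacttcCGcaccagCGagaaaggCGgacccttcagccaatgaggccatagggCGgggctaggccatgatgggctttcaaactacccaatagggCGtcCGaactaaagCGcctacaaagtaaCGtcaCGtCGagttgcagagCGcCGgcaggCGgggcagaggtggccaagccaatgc
Eif4a2: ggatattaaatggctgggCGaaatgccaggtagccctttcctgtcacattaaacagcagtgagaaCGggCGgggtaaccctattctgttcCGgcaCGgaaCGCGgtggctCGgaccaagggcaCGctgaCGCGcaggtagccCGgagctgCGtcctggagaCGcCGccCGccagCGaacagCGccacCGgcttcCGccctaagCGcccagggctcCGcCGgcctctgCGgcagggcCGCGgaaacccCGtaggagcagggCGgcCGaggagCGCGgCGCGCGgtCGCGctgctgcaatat

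These 3 promoters held 21, 23 and 36 CpGs. Those of Eif2ak2 (17 CpGs) and Eif4ebp2 (34 CpGs), the other members with UA sites, are not printed. Over the 5 members with UA sites the median was 23 CpGs (17 to 36), and over the 50 promoters of members without UA sites it was 24 (9 to 50). The median of all 32851 RefSeq promoters of this length, from 27025 genes, was 7, and that of the 14820 promoters whose genes were in the list of PASs was 18. The poly(A) signal AATAAA, searched on the strand opposite to the gene, was in none of the 5 promoters, in 2 of the 55 promoters of 42 members (3.64%), in 5.67% of the promoters of listed genes and in 10.5% of all promoters. The window ends 250 bases before the start, and the UA sites were not placed on it because the builds differ. Neighbouring UA sites lay 988 and 757 nt apart in Eif2s3x and 803 nt apart in Eif2ak2, more than the window is long. The search therefore cannot show whether the UA sites have this signal.

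A further 23 genes linked to initiation were examined, and all were in the list. The set holds poly(A)-binding and cap-complex partners (such as Pabpc1, Paip1 and Pdcd4), kinases of the mTOR and MAP kinase pathways, subunits of the eIF2 phosphatase, and Atf4, whose translation responds to eIF2 phosphorylation. These genes had a median of 3 PASs, and 19 (82.6%) had 2 or more, against 61.1% of the members and 67.1% of all genes. With 12 PASs, Rps6kb1 (the S6 kinase downstream of mTOR) had the most, and Ppp1r15b, which encodes a targeting subunit of the eIF2 phosphatase, had 8. Intronic sites made up 23.9% of their intronic and exon3 entries, beside 24.3% in the members. Among the 11 of these genes with 2 or more exon3 PASs the median outermost distance was 1937 nt, beside 787.5 nt in the members. Both lists were put together with earlier results of these data known, and neither difference was tested.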

How the data were processed

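3′READS+ libraries were made from 12 samples of hippocampal mini-slices in 4 groups of 3. The authors aligned reads (Bowtie2 and mm9, per the submitters' processing notes), took as PASs the ends of reads with extra non-genomic Ts, joined PASs within 24 nt and deposited 1 list that gives each PAS a gene, a strand, a coordinate and a region label. Positions are nucleotide coordinates as deposited, 1 per entry. The 12 columns of read counts were not used, because their names match no sample label, so depth per library and per PAS is not given. The supplement states a filter on read number and relative abundance behind the study's own counts of PASs. The deposited list was used whole, without such a filter. Its 56204 entries in 16627 genes are far more PASs, in more genes, than the study counts after its filter. The paper also places a much smaller share of PASs in introns than the 32.7% of this list. The numbers of PASs and the intronic share given here are therefore not those of a filtered set. By clustering, the paper also calls control 3 hr sample 3 an outlier, and it left outliers out of its analysis of alternative PASs. No library was set aside here.

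Members were selected by symbol, and all their entries were kept. Sites of members were ordered along the gene's strand, and distances were computed per gene between entries on the same chromosome. The entries of each member shared 1 gene strand. For the exon3 distances of all genes the strand was not checked. The members, functional groups and list of partners were chosen with earlier results of these data known. All members were accounted for, and positions were given for the 10 with the most PASs, the 10 with the longest exon3 distance, those with both an intronic and an exon3 PAS, those with a single PAS and 9 sets of paralogues, and for Eif2b3 and Eif3m in addition. Symbols matched GENCODE identifiers in 53 cases and a RefSeq synonym in 1. Only 14 of 106 exon3 sites lay within 5000 nt of the gene of that name on GRCm38, so the reference was used for names, gene order and promoters only, with no conversion of coordinates. Python 3.11.15, pandas 2.3.3, numpy 2.4.6, scipy 1.17.1 and matplotlib 3.10.9 were used, and the counting was tested on simulated data. No p-value was computed, because the replicate columns were not matched to samples and were left out. Alternatives were merging PASs within 100 nt, leaving out UA sites, adding exon3ext sites, other definitions of intronic PASs and leaving out the 9 genes that are not factors or subunits.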

Additional observations from a re-analysis of the deposited data

How the results depend on the processing

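Of the 17 alternatives, those for the median exon3 distance and the intronic share stayed within the intervals of these values, and the others concerned counts. The intervals ran from 295 to 1539 nt and from 17.9% to 32.0%, so staying within them was a weak check. The number of members with 2 or more PASs was 33, and 32 without UA sites. That with 2 or more exon3 PASs was 26, 23 when sites within 100 nt were merged, and 19 among the 45 genes of factors and subunits only. The median exon3 distance of 787.5 nt became 1026 nt with exon3ext sites, 885 nt with merging and 694 nt in factors and subunits only. Members with an intronic PAS were 16, 15 with intron_Comp alone, and 11 among factors and subunits only. The intronic share of 24.3% ranged from 18.3%, in factors and subunits only, to 23.0%, with exon3ext sites added. No member site was shared with another gene, so leaving such sites out changed nothing. No paired analysis was possible because the replicate columns could not be tied to animals by name, and nothing else in the list differs between libraries. Depth per site was not read, which limits every count of PASs.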
